A study of Mus with 2 samples.

Results

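In the section of the rIL7-treated tumor, 160 of the 1599 interior spots were taken as Pf4-high, and the other 1439 interior spots served as the comparison. Interior spots lay at least 3 grid steps inside the outer outline of the largest tissue piece, with the outline counted as step 1, and the Pf4-high spots were chosen by their Pf4 counts per 1000000 UMIs (CPM, where a UMI is a unique molecular identifier that marks 1 captured molecule), as the top 10% of them. The level of Pf4 in these spots is therefore a description only. All 1951 spots over tissue in this section and 2221 in the Control section were measured by Visium, in which each barcoded spot captures RNA from whatever cells lie over it, often more than 1.

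The 2 sections came from subcutaneous CT-26 tumors, a mouse colon carcinoma line, grown in female BALB/c mice, labelled 6 to 8 weeks old. The rIL7 mouse received 10 µg of recombinant mouse IL-7 into the abdominal cavity on days 11 and 13 after tumor cell inoculation, and the Control mouse received PBS. Both labels place collection at day 15, and each 10 µm section was 1 sample, so that each group had 1 section. No difference below has a replicate check or a test, and treatment, animal, slide area and cutting position cannot be told apart between the sections.

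Pf4 encodes CXCL4, a chemokine stored in platelet granules that is also transcribed by some tissue macrophages. Macrophages that take up red cells or dying cells break down heme with heme oxygenase (Hmox1), store the released iron in ferritin (Fth1, Ftl1) and export it through ferroportin (Slc40a1). Macrophages can also present antigen to CD4+ T cells on MHC class II molecules, whose genes respond to interferon gamma through the transactivator Ciita.

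After removal of spots with too few genes, the rIL7 section kept 1950 spots with 25729233 UMIs and a median of 12922 per spot, and the Control section kept 2219 spots with 22951678 UMIs and a median of 9623. Pf4-high spots of the rIL7 section held 2512260 UMIs, with a median of 16162 per spot against 13072 in the other interior spots. The median was 19481 in the compact patch described next and 11328 in the Pf4-high spots outside it. Weighting the other interior spots to the depth of all Pf4-high spots moved 4 of 43 gene lists and 3 of 41 genes beyond their counting intervals. The MHC class II list, not among the 43, moved too, from a log2 ratio of -0.50 to -0.42. This weighting did not match depth for the patch or for the Pf4-high spots outside it separately. Ratios below are of summed CPM, with exact 95% intervals that cover counting error only. Fewer cells of a type and less RNA per cell cannot be told apart in such spots.

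The Pf4-high spots fell into 63 connected groups on the grid, of which 45 were single spots and 1 was a compact patch of 69 spots. Each spot inside the tissue touches 6 others, and 28 spots of this patch had all 6 neighbors within it. The patch lay at steps 8 to 18 from the outline, while the next largest group had 6 spots. Among the interior neighbors of Pf4-high spots, 41.2% were Pf4-high (388 of 942), against 10% of all interior spots. For the 91 Pf4-high spots outside the patch the share was 12.5% (66 of 528), where 5.95% of the 1530 interior spots outside the patch were Pf4-high. The patch was itself defined by adjacency, so these shares describe how the spots lie and nothing further was read from them.

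**Figure D1:**
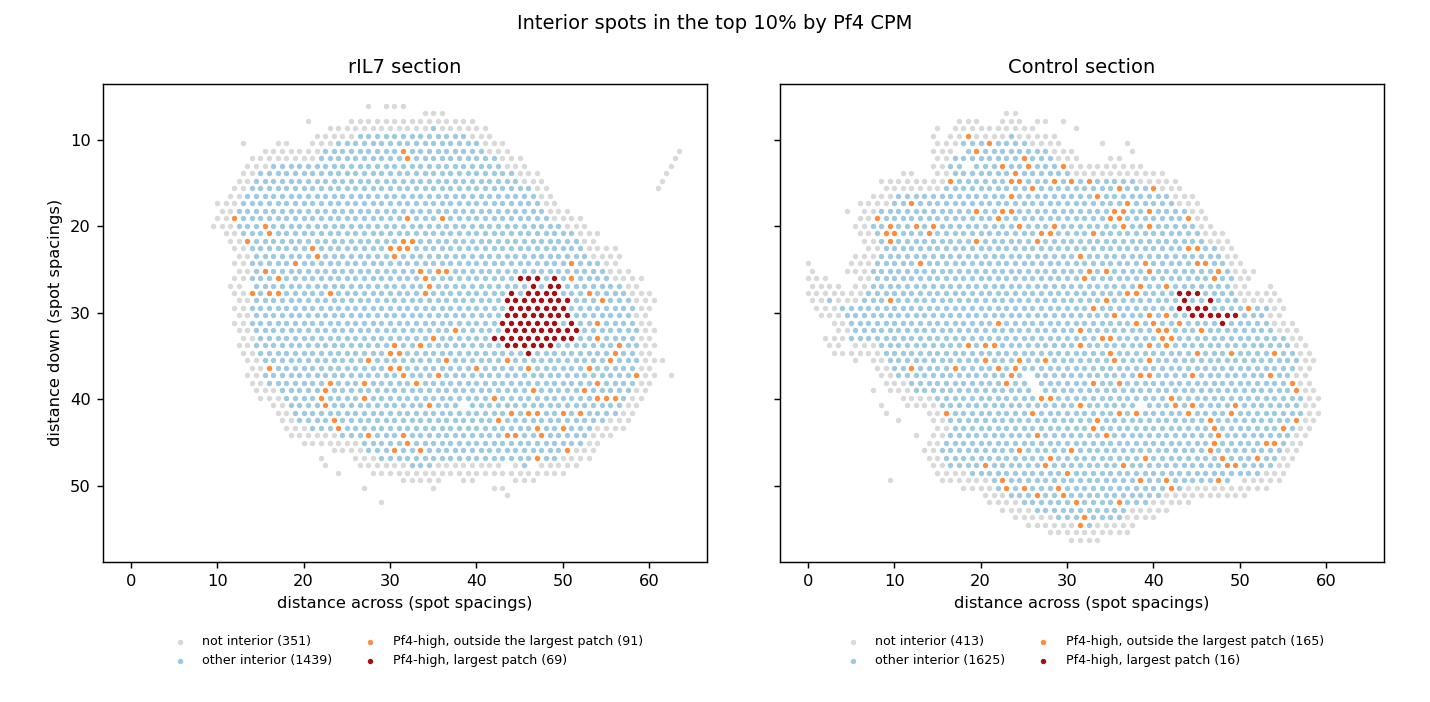
Position of every spot kept, in units of spot spacing, in the rIL7 section (left) and the Control section (right), with the number of spots of each kind under each map. In the rIL7 section 69 of the 160 Pf4-high spots formed 1 patch (dark red), and in the Control section the largest of the patches had 16 spots of 181.

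By depth in the tissue, Pf4-high spots made up 5.87% of the interior spots at steps 3 to 5. The share was 17.1% (11.7 to 23.6) at steps 15 to 17, and 7.07% (2.89 to 14.0) at the deepest steps, 18 to 21. These intervals take each spot as independent, which adjoining spots are not. In the middle bands the patch held 24 of 32 Pf4-high spots at steps 9 to 11, 25 of 37 at steps 12 to 14 and 16 of 29 at steps 15 to 17. In the Control section the share lay between 6.82% and 12.2% over the same bands, with 11.9% at steps 3 to 5. By quadrant of the rIL7 interior, cut at its median array row and column, the Pf4-high spots numbered 26, 34, 24 and 76, and the patch lay in the second (27 spots) and the fourth (42 spots).

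**Figure D2:**
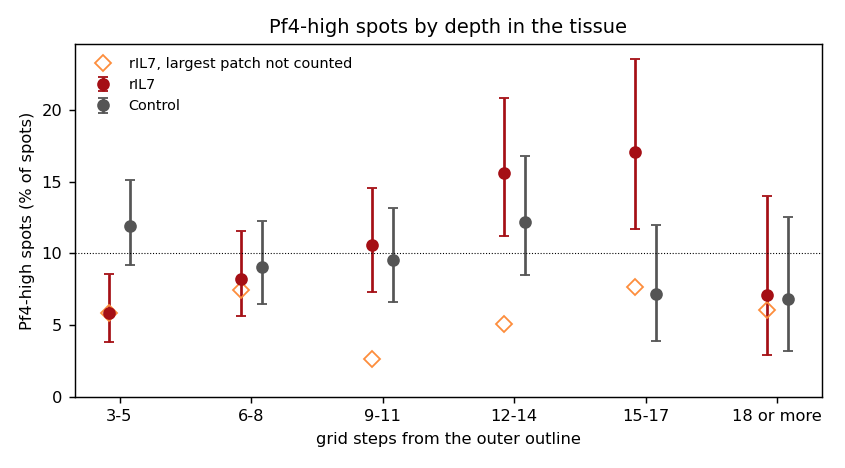
Share of spots that were Pf4-high (y axis, percent) by grid steps from the outer outline (x axis), with exact 95% intervals. These intervals take each spot as independent, which adjoining spots are not. Open diamonds give the rIL7 share with the 69 patch spots not counted as Pf4-high, and they stay below 10% in every band.

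The lowest Pf4-high spot had 439 CPM, from 5 Pf4 UMIs of 11387. The highest spot left out had 438 CPM, from 4 Pf4 UMIs of 9134. The gap was 1.17 CPM, so 1 Pf4 UMI more or fewer would have moved either spot across this limit. Within the patch, Pf4 (chromosome 5, GRCm38, bases 90772435 to 90773383) ranged from 442 to 4325 CPM with a median of 924. In the 91 other Pf4-high spots it ranged from 439 to 914 CPM with a median of 534.5, and in the other interior spots the median was 149.5 CPM. The patch alone held 34.0% of the Pf4 UMIs of the interior, and all 160 spots held 44.6%. Pf4 was not detected in 235 of the 1439 other interior spots.

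Other platelet transcripts were few in the Pf4-high spots. Ppbp, the neighboring platelet chemokine gene, had 15 UMIs in the Pf4-high spots and 56 in the rest, a ratio of 2.04 (1.07 to 3.65), and 12 UMIs in the spots 1 to 2 steps around the patch against 9 within it. Itga2b, the platelet integrin alpha IIb, was lower, at 10.8 against 20.9 CPM. Gp1ba, Gp6, Gp9 and Tubb1 had no UMI in either set. The platelet list as a whole stood at 19.5 against 26.5 CPM, from 49 UMIs in the Pf4-high spots.

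Heme and iron handling genes were higher in the patch than in either other set of spots. Hmox1 (chromosome 8, GRCm38, bases 75093618 to 75100593) had 931 CPM in the patch, 90.5 CPM in the other Pf4-high spots and 55.3 CPM in the other interior spots. Spot values in the patch ran from 0 to 4085 CPM with a median of 549, while the median was 0 in the other Pf4-high spots and in the rest. The patch held 1300 Hmox1 UMIs against 101 in the other Pf4-high spots and 1058 in the rest, and its ratio to the other interior spots was 16.8, against 1.64 (1.32 to 2.01) for the other Pf4-high spots. Of the 101 UMIs in the latter, 44 lay in 1 group of 6 spots, and the remaining 85 spots had 57.6 CPM, a ratio of 1.04 (0.783 to 1.36).

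Slc40a1 (chromosome 1, GRCm38, bases 45908070 to 45926532), the iron exporter, had 98 UMIs in the patch, 2 in the other Pf4-high spots and 56 in the 1439 other interior spots, so that the patch stood at 70.2 against 2.93 CPM. It was detected in 41 of 69 patch spots and in 54 of 1439 other interior spots. After each spot was thinned to 5900 UMIs, the shares with a UMI were 30.9% (20.2 to 43.3) in the patch and 1.13% (0.645 to 1.82) in the rest, with 1 patch spot and 17 of the rest left out as too shallow. The thinned share was 0 of 88 in the other Pf4-high spots (3 left out), whose interval reached 4.11%. Unthinned shares were 59.4% in the patch, 2.2% in the other Pf4-high spots and 3.75% in the rest. These intervals take each spot as independent, which adjoining spots of 1 section are not. With and without thinning, the share was highest in the patch, and the other Pf4-high spots were not above the rest.

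Of the 9 heme and iron genes, 8 were higher in the Pf4-high spots than in the rest, with a median log2 ratio of 0.66, where 40% of all 7603 genes tested were higher and their median was -0.05. The heme importer gene of lysosomes, Slc48a1, stood at 126 against 58.0 CPM. Biliverdin reductase Blvrb stood at 109 against 70.5 CPM, and the transferrin receptor Tfrc, which imports iron, at 41.4 against 44.8 CPM. The ferritin genes Fth1 and Ftl1 had ratios of 1.53 (1.51 to 1.56) and 2.0 (1.95 to 2.05), but both have near-identical copies in the genome, and how reads were split among these is uncertain. The summed list stood at 12091 against 7089 CPM, a ratio of 1.71 (1.68 to 1.73). In the patch the ratio was 2.17 (2.13 to 2.2) and in the other Pf4-high spots 1.13 (1.1 to 1.15), or 1.03 (1.01 to 1.06) without the same 6 spots. By quadrant the list had 1.33, 1.51, 0.998 and 2.06, so that it was not higher in the third. The Nrf2-dependent antioxidant genes Gclm, Srxn1 and Slc7a11 had ratios of 2.06, 2.02 and 2.48, and their list stood at 2.13 (1.94 to 2.33) in the patch.

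Hemoglobin transcripts were few, and red cells in the patch were not described further. The red blood cell list had 13 UMIs in the patch (9.31 CPM) and 46 in the rest (2.41 CPM). Its patch ratio was 3.87 (1.92 to 7.29), and it had 0 UMIs in the other Pf4-high spots. Hbb-bs, which has a near-identical neighbor gene, had 11 UMIs in all Pf4-high spots and 25 in the rest, and Alas2, the enzyme of heme synthesis in red cell precursors, had none. All 13 hemoglobin UMIs of the Pf4-high spots lay in the patch, and the spots 1 to 2 steps around it had 0, where a count of 0 allows up to 3 UMIs.

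**Figure D3:**
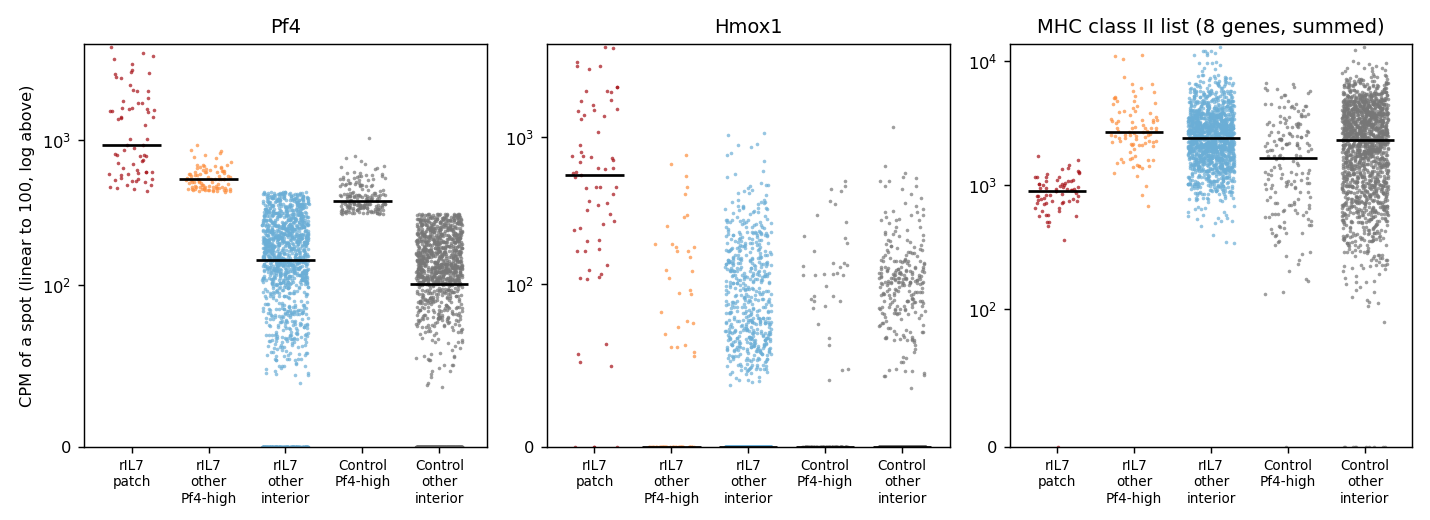
CPM of each spot for Pf4, Hmox1 and the summed MHC class II list (y axes, linear to 100 CPM and logarithmic above), with black lines at medians. Hmox1 stood at a median of 549 CPM in the patch and 0 in every other set, and the MHC class II list was lower in the patch than in the other Pf4-high spots.

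Macrophage identity genes were moderately higher in both kinds of Pf4-high spots. All 11 core macrophage genes were above 1, and the list stood at 4551 against 3289 CPM, a ratio of 1.38 (1.36 to 1.41). The ratio was 1.54 (1.5 to 1.58) in the patch and 1.19 (1.15 to 1.23) outside it, and lay between 1.1 and 1.32 over the 4 quadrants. Lyz2, which encodes lysozyme, and Cd68, a lysosomal membrane protein of macrophages, had ratios of 1.48 and 1.5. Csf1r, the receptor that macrophages need to survive, went the other way between the sets, with 1.04 in the patch and 1.41 in the other Pf4-high spots. Monocyte genes did not follow, at 167 against 172 CPM.

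Of the resident-like macrophage genes, 14 of 15 with at least 20 UMIs were above 1, with a median log2 ratio of 0.82. The complement genes C1qa, C1qb and C1qc had ratios of 1.28, 1.27 and 1.28. Cd163, the scavenger receptor for hemoglobin bound to haptoglobin, stood at 35.0 against 16.8 CPM, a ratio of 2.09 (1.63 to 2.65), with 2.47 in the patch and 1.6 outside it. The mannose receptor Mrc1 had 1.54 (1.39 to 1.7) and the folate receptor Folr2 1.7 (1.43 to 2.01). Gas6, a bridge to dying cells, and Selenop, a selenium carrier, had ratios of 2.24 and 2.19, but for Gas6 the ratio was 0.941 outside the patch. Lyve1 and Vsig4, markers of resident macrophages in several tissues, had 2 and 3 UMIs. The summed list had a ratio of 1.6 (1.55 to 1.65) in the patch and 1.17 (1.12 to 1.21) outside it.

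Genes of lysosomes and lipid handling were also higher in the patch. All 16 lysosome genes were above 1 in the Pf4-high spots, with Ctsb and Ctsd, which encode cathepsins, at 1.78 and 1.84 and at 2.26 and 2.34 in the patch. Among lipid genes, Fabp5, a fatty acid binding protein, stood at 428 against 106 CPM, Plin2, the coat of lipid droplets, at 211 against 98.2 CPM, and Apoe at 2019 against 1260 CPM. Spp1, osteopontin, ran against the rest of that list, at 2180 against 3069 CPM, and was 0.542 in the patch. Spp1 gave 5477 of the 16447 UMIs of the lipid list, whose summed ratio was 1.09 (1.07 to 1.11).

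Arg1, which breaks down arginine, and Nos2, which makes nitric oxide from it, were both higher. Arg1 stood at 296.5 CPM in the patch, 123 CPM in the other Pf4-high spots and 74.4 CPM in the rest, with spot medians of 225, 66.6 and 58.9 CPM. Without the group of 6 spots the other Pf4-high spots had 91.9 CPM, a ratio of 1.24 (0.989 to 1.53). Nos2 rested on 50 UMIs in Pf4-high spots and 95 in the rest, a ratio of 4.0 (2.79 to 5.7), with 4.76 in the patch and 3.06 outside it. Of its 33 patch UMIs, 28 lay in the 28 spots surrounded by the patch. The other 41 patch spots had 6.16 CPM, against 4.97 CPM in the rest. Other alternative activation genes were mixed: Il1rn, the interleukin-1 antagonist, had 1.76, Mgl2 0.792 and Tgm2 0.92, while Retnla and Chil3 had 0 and 1 UMI in Pf4-high spots.

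Within the pro-inflammatory list, Ccl5 gave most of the difference between the patch and the other Pf4-high spots. The pro-inflammatory list stood at 1381 CPM in the patch, 536 in the other Pf4-high spots and 429.5 in the rest, for ratios of 3.21 (3.06 to 3.38) and 1.25 (1.15 to 1.36). Ccl5, a chemokine for T cells and monocytes, made up most of it, with 1200 of its 1383 UMIs in the patch and a ratio of 5.68 there against 1.08 outside. Ccl3 and Ccl4 were higher in both sets, at 3.1 and 2.17 in the patch and 2.22 and 2.0 outside. Il1b had 1.47 (1.34 to 1.61), with 1.63 in the patch and 1.27 outside it. Within the patch it stood at 392 CPM in the 28 spots surrounded by the patch. The other 41 patch spots had 149 CPM, against 154 CPM in the rest. Ptgs2, the inducible cyclooxygenase, had 1.51, while Tnf had 14 UMIs and a ratio of 0.919.

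Of the monocyte-attracting chemokines, Ccl8 stood at 974 against 384 CPM, Ccl6 at 416 against 122 CPM and Ccl9 at 229 against 112.5 CPM, whereas Ccl2 had 890 against 824 CPM. The list ratio was 2.01 (1.95 to 2.06) in the patch and 1.13 (1.08 to 1.17) outside it. The CXCR2 ligands Cxcl2 and Cxcl3, which attract neutrophils, had ratios of 5.72 and 4.77, and 8.95 and 7.56 in the patch. S100a8 and S100a9, calprotectin genes that neutrophils and some monocytes carry, stood at 3.18 and 3.0 in the patch. With them the neutrophil list stood at 2.16 (2.03 to 2.3) in the Pf4-high spots and 2.83 (2.63 to 3.04) in the patch, and 4 of its 5 genes with at least 20 UMIs were above 1. S100a8 and S100a9 gave 322 and 854 of its 1251 UMIs. The neutrophil collagenase gene Mmp8 had 7 UMIs and a ratio of 2.13 (0.778 to 5.07), and the receptor genes Csf3r and Cxcr2 had 1.14 (0.851 to 1.49) and 0.846 (0.352 to 1.76). Ly6g, Ngp and Camp had no UMI in the interior, and Retnlg had none in the Pf4-high spots and 12 in the rest. The part of neutrophils in these values was not tested.

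Antigen presentation genes lay on opposite sides of 1 in the patch and in the other Pf4-high spots. All 8 MHC class II genes were below 1 in the Pf4-high spots as a whole, and the list stood at 1860 against 2622 CPM, a ratio of 0.709 (0.688 to 0.731). The patch had 902 CPM, a ratio of 0.344 (0.325 to 0.364), and the other Pf4-high spots had 3058 CPM, a ratio of 1.17 (1.13 to 1.21). H2-Aa (chromosome 17, GRCm38, bases 34282744 to 34287823) ranged from 0 to 400 CPM in the patch with a median of 101, and from 0 to 1702 with a median of 287 in the other Pf4-high spots, against a median of 249.9 in the rest. H2-Eb1 and Cd74, the invariant chain, had 0.309 and 0.344 in the patch and 1.16 and 1.19 outside it. Ciita had 23 UMIs in all Pf4-high spots and a ratio of 0.681 (0.424 to 1.04). The quadrants divided the same way, with 1.08 and 1.07 in the quadrants without patch spots and 0.517 and 0.595 in those with them.

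As sums, T cell genes and interferon gamma targets also lay below 1 in the patch and above 1 in the other Pf4-high spots. The T cell list had 0.649 (0.569 to 0.738) in the patch and 1.21 (1.08 to 1.34) outside it. By quadrant it had 0.970 and 1.26 without patch spots and 0.997 and 0.682 with them. The quadrants thus did not divide as for MHC class II. Its member Trbc2 was not higher outside the patch, at 92.3 CPM against 104.8 CPM in the rest. In the patch 12 of 13 T cell genes were below 1, as were 4701 of all 7603 genes tested. Over all Pf4-high spots 8 of 13 T cell genes were above 1 and their median log2 ratio was 0.06, while the sum was lower, at 0.897 (0.823 to 0.976). Interferon gamma targets, among them Gbp2, Irf1 and Iigp1, had 0.5 (0.464 to 0.538) and 1.11 (1.05 to 1.18), and Cxcl9, a T cell chemokine of the same program, 0.377 and 1.09. Genes of the type I interferon response went the other way in the patch: all 11 were above 1 in the Pf4-high spots, with ratios for the list of 1.51 (1.45 to 1.58) in the patch and 1.22 (1.15 to 1.29) outside it. Irf7 and Isg15 had 1.63 and 1.5, and Oasl1 reached 5.27 in the patch.

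Stroma genes and the sum of the tumor markers were lower in the patch. The 2 CT26 tumor markers differed, with Rpl39l at 402 against 391 CPM and Baiap2l1 at 585 against 719.5 CPM. In the patch Rpl39l was higher, at 1.1 (1.01 to 1.2), and Baiap2l1 lower, at 0.697 (0.645 to 0.752). Their sum there was 0.839 (0.793 to 0.888). Rpl39l is close in sequence to Rpl39, so its share of reads is uncertain. Fibroblast genes had 0.762 (0.729 to 0.797) and pericyte genes 0.57 (0.45 to 0.713) in the patch, and 0.99 and 0.927 outside it. Genes of cholesterol synthesis, which cells switch off when sterols are plentiful, were all lower in the Pf4-high spots, with 0 of 10 above 1 and a list ratio of 0.68 (0.632 to 0.731). This was the case in the patch, at 0.577, and outside it, at 0.808 (0.731 to 0.891). Of the hypoxia genes 7 of 13 were above 1, where 40% of all genes tested were. The summed hypoxia list had 1.19 (1.15 to 1.23), with 1.31 (1.26 to 1.37) in the patch and 1.04 (0.984 to 1.09) outside it. It stood at 2329 CPM in the 28 spots surrounded by the patch, 1344 CPM in the other 41 patch spots and 1338 CPM in the rest. Its quadrant ratios ran from 0.691 to 2.07.

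**Figure D4:**
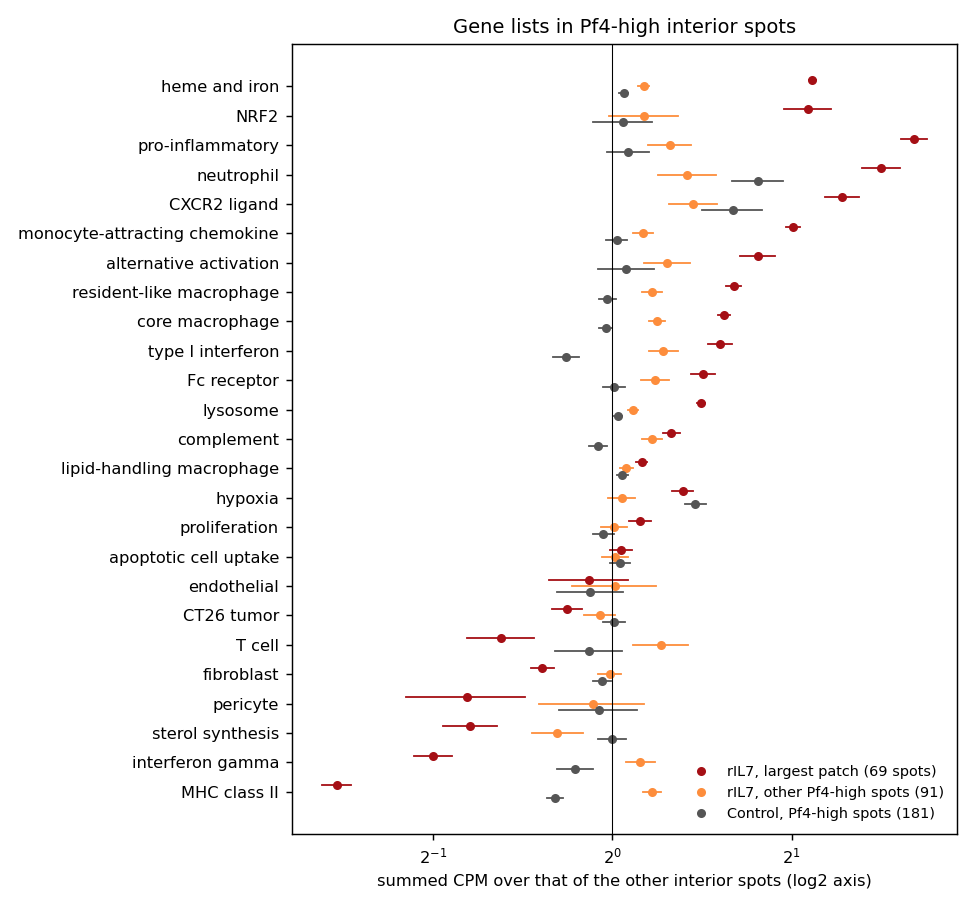
Summed CPM of 25 gene lists over that of the other interior spots of the same section (x axis, log2), with exact 95% intervals for counting error. The heme and iron list stood at 2.17 in the patch against 1.13 in the other Pf4-high spots and 1.04 in the Control section, while MHC class II genes stood at 0.344, 1.17 and 0.8.

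Moving out from the patch, Hmox1 and Slc40a1 were lower within 1 to 2 steps. Pf4 was lower as well, but spots adjoining the patch lay below the Pf4 limit by definition. Hmox1 had 1619 CPM in the 28 patch spots surrounded by the patch, 436 CPM in its other 41 spots, 158 CPM at 1 step outside and 60.5 CPM at 2 steps. Slc40a1 went from 122 to 33.3, 9.63 and 2.75 CPM, and Pf4 from 2297 to 807, 286.5 and 235 CPM. MHC class II followed another course: it was 912 and 894 CPM in the 2 zones of the patch, 1053 CPM at 1 step, 1334 at 2 steps, 1691 at 3 steps and 2495 at 4 to 5 steps. The low MHC class II level was therefore shared by the ring of tissue around the patch.

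**Figure D5:**
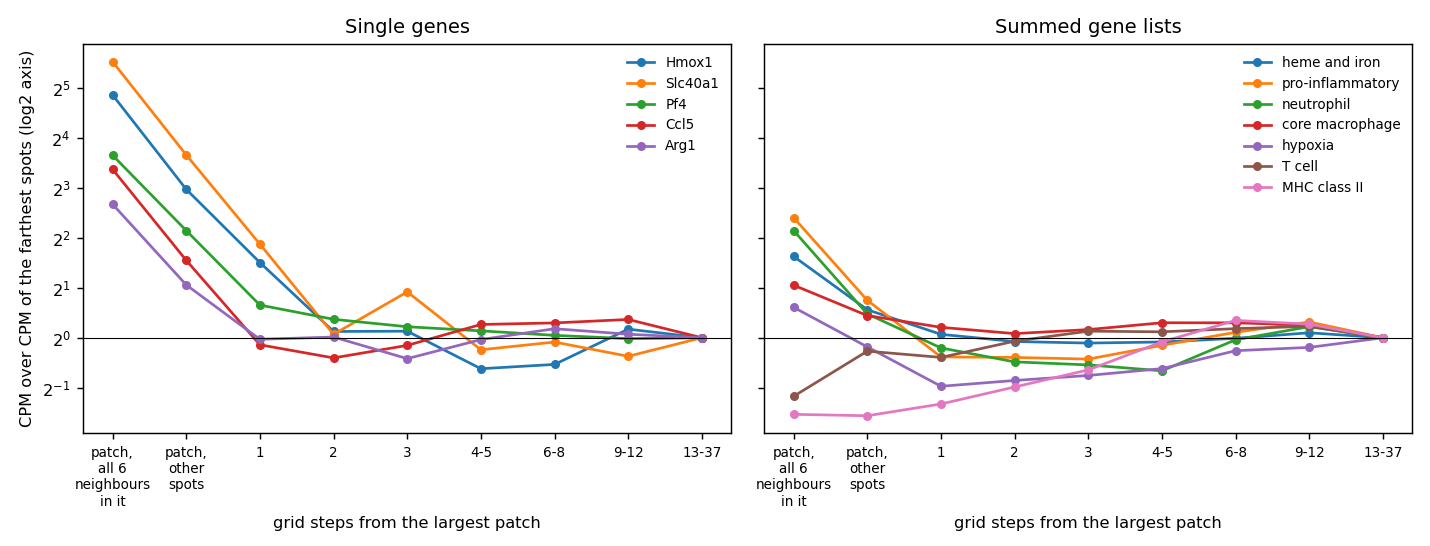
CPM of single genes (left) and summed lists (right) in the rIL7 section by grid steps from the 69-spot patch, divided by the CPM of the interior spots 13 or more steps away (y axis, log2). Hmox1, Slc40a1, Pf4, Ccl5 and Arg1 were highest in the patch center and below 2 from 2 steps on. For Pf4 the fall at the patch border follows from how the patch was chosen. The MHC class II list passed 1 at 6 to 8 steps.

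To compare the patch with its own surroundings, the 88 interior spots 1 to 2 steps outside it were used, with a median of 17188 UMIs against 19481 in the patch. Hmox1 was then 8.29 times (7.07 to 9.76) and Slc40a1 10.9 times (5.7 to 23.5) as high in the patch, the latter from 98 and 10 UMIs. Cd163 stood at 41.5 against 32.7 CPM, a ratio of 1.27 (0.856 to 1.89) whose interval included 1. The heme and iron list was 2.15 (2.1 to 2.2), the pro-inflammatory list 4.19 (3.8 to 4.62), the type I interferon list 1.86 (1.73 to 2.0) and core macrophage genes 1.49 (1.44 to 1.55). The MHC class II list was 0.761 (0.708 to 0.819) and the T cell list 0.786 (0.664 to 0.928), much nearer to 1 than against all other interior spots. The hypoxia list was 2.17 (2.03 to 2.33) against these neighbors, and 1.31 against all other interior spots. Against these neighbors, 3.6% of the genes tested passed 1.5-fold upward and 5.68% passed it downward.

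The second largest group of Pf4-high spots, with 6 spots at steps 16 and 17 of another quadrant, shared part of this pattern. It had 44 Hmox1 UMIs (349 CPM), 46 Arg1 UMIs (364.5 CPM) and a heme and iron list of 13319 CPM, but no Slc40a1 UMI and 2686 CPM of MHC class II. In the 6 smaller groups of 3 or 4 spots, Hmox1 had at most 1 UMI.

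Over all genes, 78 of 7603 with at least 20 CPM in the interior were at least 1.5-fold higher in the Pf4-high spots (1.03%), Pf4 itself included, and 68 were at least 1.5-fold lower (0.894%). For the patch the shares were 2.05% higher and 6.94% lower, and for the other Pf4-high spots 0.605% higher and 1.38% lower. Of the 77 genes higher in the Pf4-high spots other than Pf4, 77 were past the same fold in the patch and 12 in the other Pf4-high spots. The patch held 1396134 of the 2512260 UMIs that chose these genes, and all sets share their comparison spots, so these counts are a description only. The counting interval lay apart from 1 for each of the 78 and 68 genes, but for 509 of the 528 genes lower in the patch and 76 of the 105 lower in the other Pf4-high spots.

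Of these genes, 47 of the 77 higher and 50 of the 68 lower kept their direction in all 4 quadrants. They were chosen by the ratio over these quadrants together, so the counts are a description only. The 12 at either end were as follows. The 12 highest were Fabp5, Oasl1, Ccl6, Wfdc17, Arg1, Clec4d, Slfn4, Ccl8, S100a8, Siglec1, S100a9 and Selenop, with ratios from 4.05 (Fabp5) to 2.19 (Selenop). In the third quadrant, without patch spots, their ratios ran from 1.02 (Oasl1) to 2.64 (Siglec1), with Arg1 at 1.03 and Fabp5 at 1.06. Siglec1, a sialic acid receptor of macrophages that interferon induces, stood at 43.4 against 18.7 CPM. Clec4d, a C-type lectin of myeloid cells, stood at 68.5 against 24.7 CPM. Each of the 12 was higher in the patch than outside it, with patch ratios from 2.96 to 5.85 and ratios outside it from 1.24 to 1.8. Hmox1 and Ccl5 were not among them because their ratios fell below 1 in at least 1 quadrant without patch spots. Slc40a1 was left out because it was below 20 CPM over the interior.

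The 12 lowest were Prxl2a, Il11, Igkc, Csrp2, Gm30873, Mgp, Slc27a3, Prim2, Mysm1, Tnfrsf22, Msmo1 and Krt20, with ratios from 0.423 (Prxl2a) to 0.566 (Krt20). Mgp, matrix Gla protein of stromal and vascular cells, had the most UMIs, at 432 against 838 CPM, with 0.281 in the patch and 0.809 outside it. Il11, a cytokine of the interleukin-6 family, stood at 13.1 against 30.6 CPM, with 0.399 in the patch and 0.469 outside it. Igkc, an immunoglobulin light chain gene of plasma cells, rested on 25 UMIs in the Pf4-high spots and belongs to a multigene family whose reads may be split, and Krt20 rested on 83.

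In the Control section the same rule gave 181 of 1806 interior spots, with a limit of 309 CPM and 1 to 13 Pf4 UMIs per spot, of which 73 spots had 3 or fewer. Of the genes tested there, 0.158% passed 1.5-fold upward in the Pf4-high spots and 0.525% downward. The heme and iron list had 1.04 (1.03 to 1.06), core macrophage genes 0.974 (0.948 to 1.0) and resident-like macrophage genes 0.98 (0.949 to 1.01). Hmox1 had 53 UMIs and a ratio of 1.56, and Slc40a1 9 UMIs and 4.22, with 19 UMIs in the other spots. Cxcl2 was 5.02, S100a8 2.24 and the hypoxia list 1.38 (1.32 to 1.44), with 13 of 13 genes above 1. The MHC class II list had 0.8 (0.775 to 0.826), with 0 of 8 genes above 1, and the type I interferon list 0.835 (0.793 to 0.877). No interior spot of the Control section had more than 1163 Hmox1 CPM, from 2 UMIs, and 5 reached 500 CPM, against 50 in the rIL7 section, of which 36 lay in the patch.

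Over all genes tested in the Control section, 45.1% were above 1 in its Pf4-high spots, with a median log2 ratio of -0.02.

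The largest Control patch had 16 spots, 93 Pf4 UMIs, 6 Hmox1 UMIs and 2 Slc40a1 UMIs. Its heme and iron list was at 0.993 (0.94 to 1.05) and its core macrophage list at 0.622 (0.56 to 0.689), while its MHC class II list was at 0.192 (0.156 to 0.234) and Arg1 at 77.0 against 11.6 CPM. Of these 16 spots, 13 carried the same array positions, and hence the same spot barcodes, as spots of the rIL7 patch. Over the 67 Control interior spots at array positions of the rIL7 patch, MHC class II genes stood at 0.255 (0.234 to 0.277), Pf4 at 1.6 (1.36 to 1.87) and Hmox1 at 1.57 (0.983 to 2.4, from 23 UMIs) times the level of the other Control interior spots. Ccl5 stood at 0.389 and the core macrophage list at 0.658 there. In the Control section low MHC class II reached farther. It stood at 1614 CPM at 9 to 12 steps from the largest Control patch and at 3278 CPM beyond. At the shared array positions MHC class II was thus low in both sections. The macrophage list, the heme and iron list and Ccl5 were high there in the rIL7 section alone. Pf4 was high there in both, but in the rIL7 section by the rule that chose the spots. Because both libraries use the same spot barcodes, UMIs of the rIL7 library assigned to the Control library would fall at these positions, so the source of the Control UMIs there is uncertain. The part of the shared positions and barcodes in these results was not tested.

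Overlap with other groups of high spots followed the same lines. Of the 160 Pf4-high spots of the rIL7 section, 51 were also among the top 10% of interior spots for Arg1 (31.9%), 35 of them in the patch. For the heme and iron list the overlap was 58 spots (36.3%), 47 of them in the patch. For core macrophage genes it was 41 (25.6%) and for the summed lipid list 28 (17.5%), for Il1b 32 (20%), for hypoxia 22 (13.8%) and for CT26 tumor genes 14 (8.75%), where 10% of all interior spots were Pf4-high. Spp1-high spots overlapped in 5 (3.13%). Of the 69 patch spots, 0 were in the top 10% for MHC class II and 1 for T cell genes, while of the 91 other Pf4-high spots 16 (17.6%) and 17 (18.7%) were.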

How the data were processed

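Per the labels and the study's methods, the authors cryosectioned frozen tumors at 10 µm, captured RNA with the Visium Spatial 3' v1 kit, and counted UMIs with Space Ranger 1.1.0 on the mm10 reference. The deposited matrices hold raw counts of UMIs per gene and spot, with no normalization. Rows that shared a gene symbol were summed (32285 features gave 32245 symbols).

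Spots with over 200 genes and under 10% mitochondrial UMIs were kept, as in the study's methods. Steps were counted on the hexagonal grid from the outer outline, with inner holes ignored. UMIs were summed over each set of spots and divided by their total, as CPM. Intervals are exact (Clopper-Pearson). They cover counting error only, since spots of 1 section are not replicates. Intervals of shares of spots take each spot as independent, which adjoining spots are not. The 45 gene lists were counted over genes with at least 20 UMIs. Symbols of 2 list genes were not matched, and 1 matched by an older name. Named genes had at least 20 CPM, a 1.5-fold ratio and 1 direction in all 4 quadrants, cut at the median array row and column, taking the 12 highest and 12 lowest, besides Pf4, Ppbp, H2-Aa, H2-Eb1, Arg1, Spp1, Il1b, Nos2, Rpl39l, Baiap2l1 and members of reported lists. The members and lists were chosen with earlier results of these data known. The comparison of the patch with the spots around it, with the array positions shared by both sections and with the second group was chosen after seeing the data. Gene coordinates are from RefSeq (GRCm38.p6). The alternatives used edgeR 4.0.16 (TMM) and DESeq2 1.42.0 (median of ratios) for scaling only. The code was tested on simulated counts. Sequences were not used here. Python 3.11.15, numpy 2.4.6, scipy 1.17.1 and R 4.3.3 were used.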

Additional observations from a re-analysis of the deposited data

Results flagged for a closer look

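Several ratios of Pf4-high to other interior spots lay on opposite sides of 1 in the rIL7 and Control sections, each with a counting interval apart from 1. With 1 section per group, the difference between sections was not tested. The type I interferon list had 1.38 in rIL7 (1.22 in the Pf4-high spots outside the patch) and 0.835 in Control. Its member Oasl1 had 3.64 (1.61 outside the patch) and 0.598, and Siglec1 had 2.32 (1.34 outside the patch, with an interval of 0.878 to 1.97) and 0.457 from 16 UMIs. The complement list had 1.22 (1.17 outside the patch) and 0.946. The immediate early list had 0.931 and 1.08. Mgp had 0.516 (0.809 outside the patch) and 1.07.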

How the results depend on the processing

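Values here are log2 ratios of summed levels of Pf4-high over other interior spots, unless a count or share is named. The heme and iron list had 0.77. It had 1.09 with the top 5% of spots and 0.48 with the top 20%, 0.75 with the other spots weighted by step, 0.63 with each spot weighted the same, 0.82 with TMM and 0.82 with median-of-ratios scaling, and 0.85 with the interior from 5 steps. Without the largest patch it had 0.18. Further alternatives were added after seeing the data: the patch alone gave 1.11, the patch over the spots 1 to 2 steps outside it 1.1, and the list without Fth1 and Ftl1 1.74. The MHC class II list had -0.50. It had -0.77 and -0.20 with the top 5% and 20%, -0.55 with Pf4 counted after thinning, -0.67 with Pf4 pooled over adjoining spots, -0.35 and -0.42 with the other spots weighted by step and by UMI decile, -0.31 with each spot weighted the same, -0.44 with TMM and -0.44 with median of ratios. It changed sign without the patch, at 0.22, and had -1.54 in the patch alone and -0.39 over the spots around it.

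Without the patch, other signs also turned: CXCR3 axis 0.24, T cell 0.27, lymphatic endothelial -0.0382 and interferon gamma 0.16 among the lists, and H2-Aa 0.24, H2-Eb1 0.22 and Slc40a1 -0.71 (2 UMIs) among the genes. The CXCR3 axis also turned with the top 20% (0.0617), the interior from 5 steps (0.0292) and the spots around the patch (0.0829). Over those spots immediate early genes (0.0811), Ppbp (-0.26) and Krt20 (0.19) turned as well. The counts of genes at least 1.5-fold higher and lower were 78 and 68. They were 156 and 416 with the top 5%, 39 and 10 with the top 20%, 46 and 105 without the patch, 156 and 528 in the patch alone, 274 and 432 over the spots around it, 210 and 342 at a gene minimum of 5 CPM, and 579 and 970 at 20 UMIs. The count of lower genes was 116 with Pf4 pooled over adjoining spots and 123 with the interior from 5 steps. The share of neighbors that were Pf4-high was 52.3% with the top 5%, 70.4% with Pf4 pooled over adjoining spots, which makes neighbors alike by construction, and 46.8% with the interior from 5 steps, against 41.2%. In the Pf4-high spots outside the patch, the ratios of Hmox1 (1.64), Arg1 (1.65) and the heme and iron list (1.13) were 1.04, 1.24 and 1.03 without the second largest group, an alternative chosen after seeing the data. Leaving out the spot filter, or the mitochondrial, ribosomal and hemoglobin genes from the totals, moved 0 of 43 further lists and 0 of 41 genes beyond their counting intervals. Pf4-high spots outside the patch rest on a few Pf4 UMIs each, which limits how well they are told apart from the rest.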

Other observations

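Among gene groups not described above, Fc receptor genes were above 1 in 6 of 6 genes, with a list ratio of 1.31 (1.26 to 1.36). Coagulation genes had 1.29 (1.21 to 1.37), among them F13a1, the macrophage factor XIII subunit, at a ratio of 2.63 (2.14 to 3.21). Genes of the ATF4 stress response had 1.14 (1.08 to 1.19), glycolysis genes 1.09 (1.08 to 1.1) and proliferation genes 1.06 (1.03 to 1.1). Plasma cell genes had 0.515 (0.405 to 0.647), from 79 UMIs in the Pf4-high spots. Over all Pf4-high spots the dendritic cell, NK cell, cytotoxicity, mast cell and endothelial lists had intervals that included 1. The NK cell list nonetheless had 0.706 (0.515 to 0.946) in the patch and 1.33 (1.03 to 1.7) in the other Pf4-high spots, and the cytotoxicity list 0.836 (0.729 to 0.954) and 1.14 (1.0 to 1.29).

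In the Control section a second group of 7 Pf4-high spots, with a median of 6528 UMIs per spot, had 13 Hmox1 UMIs (301 CPM), no Slc40a1 UMI, a heme and iron list of 15679 CPM and an MHC class II list of 532 CPM.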
